A study of Mus musculus with 3 samples.

Results

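The AP-1 transcription factor family was read in the deposited table by name, as the genes Fos, Fosb, Fosl1, Fosl2, Jun, Junb, Jund, Atf3, Jdp2 and Batf3. All 10 names were found, each with 1 identifier, among 54532 genes. RNA had been sequenced from RAW264.7 cells, a wild-type mouse macrophage line that turns into osteoclasts, the cells that resorb bone, when given the cytokine RANKL. Every culture received RANKL for 3 days. The control library, of RANKL alone and labelled 0 h, comes from cells without thyroid stimulating hormone (TSH), and the other cultures received TSH at 10 mU/mL for 2 h or for 24 h, so the time in culture may differ along with TSH. There were 3 libraries, 1 for each culture. The table names the columns of TSH T1 and T2, which does not tell the 2 h library from the 24 h library. They are therefore called T1 and T2, nothing is read from the hours, and they are never averaged.

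AP-1 is a dimer of proteins that share a basic region, which touches DNA, and a leucine zipper, which joins the partners. Jun proteins pair with each other or with Fos proteins, whereas Fos proteins need a partner of another subfamily, and the dimers bind the DNA element called TRE or the related cAMP element called CRE. In bone, c-Fos is required for macrophage precursors to become osteoclasts, where AP-1 works with NFATc1 downstream of RANKL. JDP2 and ATF3 pair with Jun proteins and often repress, and mice without JDP2 have impaired osteoclasts. BATF3 is best known from dendritic cells.

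Jun and Fos are textbook cases of promoters that answer to such factors, so 250 bases before the start of each are shown, 5′ to 3′ on the gene's strand, from RefSeq on GRCm38.p6. Jun is shown because, of the members past the filter used here, it differed most in both TSH libraries, and Fos because it is the member required for osteoclasts. The window of Jun lies at chr4:95052223-95052472 on the minus strand. Capitals mark the jun1 element TGACATCA, 45 to 38 bases before the start, and the jun2 element TTACCTCA, 164 to 157 bases before it, both variants of the TRE and CRE to which Jun and ATF proteins are known to bind. The window of Fos lies at chr12:85473640-85473889 on the plus strand, with 2 copies of the CRE core TGACG in capitals, 129 to 125 and 66 to 62 bases before the start, and the TATA sequence TATAAA 33 to 28 bases before it.
Jun: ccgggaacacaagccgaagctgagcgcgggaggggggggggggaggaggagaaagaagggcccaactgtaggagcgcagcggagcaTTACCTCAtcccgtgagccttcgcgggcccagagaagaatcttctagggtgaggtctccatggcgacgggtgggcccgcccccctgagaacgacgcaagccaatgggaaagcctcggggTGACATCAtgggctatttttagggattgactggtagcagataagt
Fos: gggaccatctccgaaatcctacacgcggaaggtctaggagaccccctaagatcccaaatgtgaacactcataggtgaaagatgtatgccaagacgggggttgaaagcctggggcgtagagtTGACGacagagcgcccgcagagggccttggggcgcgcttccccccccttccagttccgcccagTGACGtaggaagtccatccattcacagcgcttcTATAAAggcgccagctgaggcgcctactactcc

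Motifs were searched on both strands in windows from 250 bases before to 50 bases after the start, with 32851 such windows in the RefSeq table. A window was found for 9 of the 10 members, all but Fosl1. A member is counted where any window under its name holds the motif, whereas the percentages are of single windows. Counts and percentages are therefore not of the same kind. The jun1 element was found in 1 of the 9, Jun, and in 3.62% of all windows. The jun2 element was again found in Jun alone among the 9, and in 0.889% of all windows. The TRE in its common form, TGACTCA, was in 0 of 9 members against 5.20% of all windows, and the full CRE, TGACGTCA, in 0 of 9 against 1.79%. TGACG, which is part of the full CRE, was in 5 of 9 (Fos, Fosb, Junb, Atf3 and Jdp2) against 20.8%, and TATAAA in Fos and Junb against 13.6%. These matches describe letters in the windows, not binding.

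Reads in genes numbered 16156926 in the control library, 16809034 in T1 and 17390744 in T2, as recovered from the deposited values. Levels are in FPKM, the fragments counted in a gene divided by its length in kilobases and by a scaling factor of the library, so they can be compared between genes. That factor equalled the median-of-ratios size factor of the recovered reads in all 3 libraries and is close to, but not the same as, the summed reads. With 1 library for each culture no difference has a replicate check and no p-value is given. Intervals are 95% counting intervals, and a gene is called higher or lower beyond counting error where the interval of its ratio leaves out 1. Osteoclast markers were present, with 7 of 8 past a mean of 1 FPKM and summed levels of 2906, 2379 and 2318 FPKM in the control library, T1 and T2. Macrophage markers passed in 6 of 7 cases, with sums of 1233, 1219 and 1220 FPKM, most of which came from Cd68 and Csf1r. These 2 were lower beyond counting error in both TSH libraries, at ratios of 0.972 and 0.956 in T1 and of 0.947 and 0.953 in T2. Adgre1, at 1.41 and 1.34, and Lyz2, at 1.08 and 1.15, were higher in both, Itgam in T1 (1.52) and Cd14 in T2 (1.10). Dendritic cell markers passed in 2 of 9 (Cd74 and Itgax), with Flt3, Ccr7, Cd209a and Siglech at 0 reads in all 3 libraries, and osteoblast and fibroblast, lymphocyte and neutrophil markers in 0 of 8, 1 of 6 (Lck) and 0 of 7.

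The family spanned a wide range of levels, with 8 of 10 members past a mean of 1 FPKM. In the Fos subfamily, Fosl2 (encoding FRA-2) stood at 115 FPKM in the control library, 106 in T1 and 99.8 in T2, from 18030, 17173 and 16924 reads. Fos (chromosome 12, 85473890 to 85477273, plus strand, 4 exons) stood at 109, 113 and 99.4 FPKM. Their order was not fixed: the ratio of Fos to Fosl2 was 0.944 (0.912 to 0.976) in the control library, 1.07 (1.04 to 1.11) in T1 and 0.996 (0.963 to 1.03) in T2. That order also rested on the length used, since with the length of the longest coding transcript Fosl2 was above Fos in all 3 libraries, by 1.41-fold in the control library. Fosl1, encoding FRA-1, was lower, at 14.2, 16.0 and 13.9 FPKM. Fosb was close to absent, with 6, 5 and 2 reads, or 0.0596, 0.0478 and 0.0183 FPKM.

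Among the Jun genes, whose longest coding transcripts each have 1 exon, Junb led by far. Junb (chromosome 8, 84974484 to 84978718, minus strand) stood at 176, 180 and 170 FPKM. Jund was at 21.9, 21.1 and 22.2 FPKM. Jun (chromosome 4, 95049034 to 95052222, minus strand), encoding the founding member c-Jun, was lowest, at 9.66 FPKM (8.83 to 10.6) in the control library, 7.33 (6.62 to 8.09) in T1 and 6.69 (6.03 to 7.41) in T2. The level of Jun was thus 0.0548 of that of Junb in the control library, and 0.0407 and 0.0393 of it in T1 and T2.

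Jdp2 (chromosome 12, 85599027 to 85639878, plus strand), which lies on the same chromosome as Fos, had the highest level of the family in each library, at 216 FPKM in the control library, 224 in T1 and 194 in T2. Atf3, a gene that many stresses induce, was low, at 1.73, 1.38 and 2.12 FPKM from 60, 50 and 80 reads. Batf3 had 0 reads in the control library, 0 in T1 and 2 in T2. A count of 0 allows up to 3 reads, or 0.116 and 0.112 FPKM (the upper ends of the Poisson intervals used elsewhere are 0.143 and 0.138), and the 2 reads in T2 did not differ from 0 beyond counting error. Beside it, 4 of 9 dendritic cell markers had 0 reads in every library, whereas Cd74 and Itgax passed the filter. The 9 markers summed to 91.8, 85.2 and 95.2 FPKM in the control library, T1 and T2.

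The order in the control library was Jdp2, Junb, Fosl2, Fos, Jund, Fosl1, Jun, Atf3, Fosb and Batf3. Each neighbour in it differed from the next beyond counting error except Fosb and Batf3. In T1 Fos stood above Fosl2, and in T2 these neighbours did not differ beyond counting error, with a ratio of 1.0 (0.970 to 1.04) of Fosl2 to Fos. In T2 Batf3 stood above Fosb from 2 reads each, again not beyond counting error. The deposited table labels 48 genes as bZIP factors, the class that holds AP-1, and 32 of them passed the mean of 1 FPKM. By mean level over the 3 libraries Jdp2 and Junb ranked first and second of these, then came Atf4, Fos and Fosl2.

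**Figure D1:**
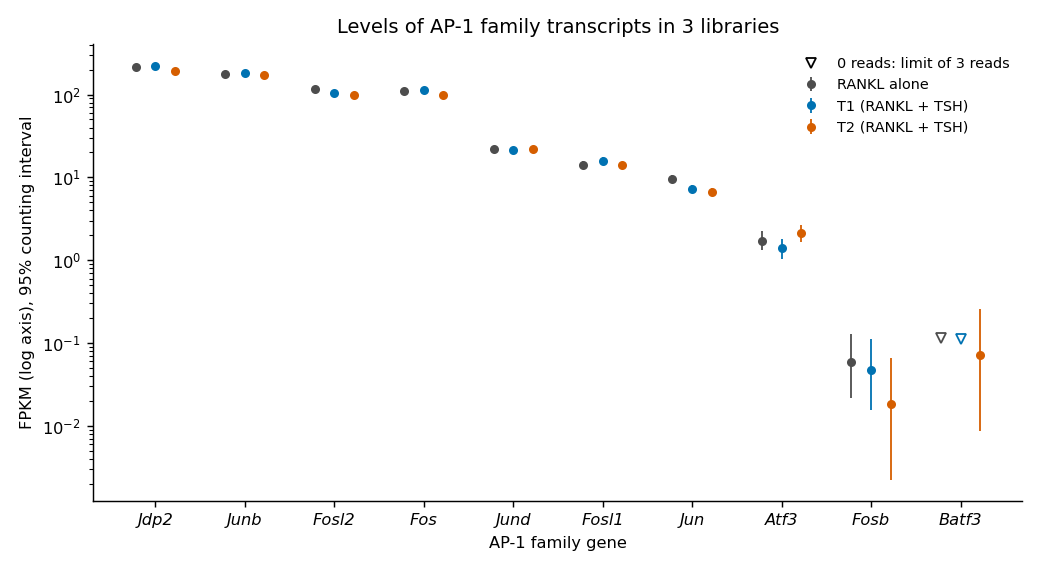
Levels of the 10 AP-1 family genes in FPKM on a log axis, 1 point for each library with its 95% Poisson counting interval. Open triangles mark 0 reads, drawn at the level of 3 reads. Jdp2, Junb, Fosl2 and Fos sit between 99.4 and 224 FPKM in all 3 libraries, Atf3 near 1 to 2 FPKM, and Fosb and Batf3 at 6 reads or fewer.

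Fos and Jun transcripts were nearly balanced per length. The Fos subfamily summed to 239 FPKM in the control library, 235 in T1 and 213 in T2, and the Jun subfamily to 208, 209 and 199 FPKM. Fos transcripts therefore made up 53.5% of both in the control library, 53.0% in T1 and 51.7% in T2, each with a counting standard error of about 0.36 percentage points. Summed as reads and not per length, the share was 74.7%, 73.6% and 73.1%, because Fosl2 is a long transcript. Within the Jun subfamily Junb held 84.8%, 86.4% and 85.5%, and Jun held 4.65%, 3.51% and 3.36%. Within the Fos subfamily Fosl2 and Fos held 48.4% and 45.7% in the control library, 45.0% and 48.2% in T1, and 46.8% and 46.6% in T2. mRNA shares do not measure the proteins or the dimers they form.

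**Figure D2:**
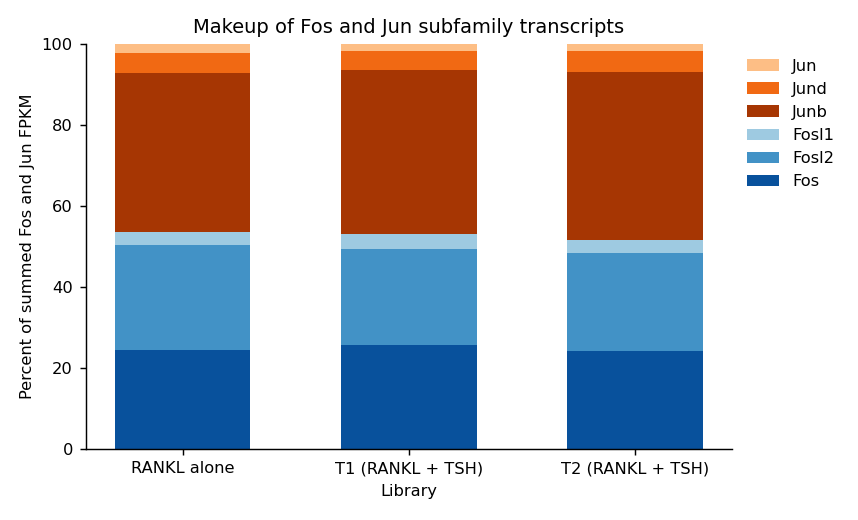
Shares of the summed FPKM of Fos and Jun subfamily genes in each library (stacked bars, percent; Fosb, under 0.02%, is not drawn). Blue shades are Fos genes and orange shades Jun genes; Junb, Fosl2 and Fos fill most of each bar, and the palest top segment, Jun, is thinner in T1 and T2 than in the control library.

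T1 was compared with the control library to see what differed in the family between them. Jun was the member past the filter that differed most, at 9.66 FPKM (497 reads) in the control library and 7.33 FPKM (392 reads) in T1, a ratio of 0.759 (0.663 to 0.868). Fosl2 was lower by less, at 115 and 106 FPKM, a ratio of 0.916 (0.897 to 0.936). Jdp2 was slightly higher, at 216 and 224 FPKM, a ratio of 1.04 (1.01 to 1.07), which no longer left out 1 when the libraries were rescaled to the same FPKM total (1.02, 0.988 to 1.05). In bulk RNA, fewer cells of a type and less RNA for each cell cannot be told apart. The summed osteoclast markers were lower in T1 and in T2 as well. The macrophage markers were split, with Adgre1 and Lyz2 higher in both TSH libraries and Cd68 and Csf1r lower in both. What part either set of markers has in the results of Jun and Fosl2, and of the members lower in T2, was not tested.

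The other members did not differ beyond counting error in T1. Fos was at 109 and 113 FPKM, a ratio of 1.04 (0.997 to 1.09), and Fosl1 at 14.2 and 16.0 FPKM, a ratio of 1.13 (0.982 to 1.29). Junb and Jund, the more abundant Jun genes, had ratios of 1.02 (0.988 to 1.06) and 0.967 (0.861 to 1.09). Atf3, from 60 and 50 reads, had a ratio of 0.802 (0.539 to 1.19), an interval too wide to show a modest change. Of the 8 members past the filter, 1 was higher and 2 were lower beyond counting error, where 10.8% and 12.2% of 11069 genes past the filter were higher and lower. By the size rule, an absolute difference of at least 1 in log2(FPKM + 1), which is 2-fold for well expressed genes, 0 members passed against 1.04% of genes. The median difference of the members was -0.01, beside 0.00 for all genes.

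T2 was set against the control library too, so noise in that library enters both comparisons. Among the members past the filter Jun was again lowest relative to RANKL alone, at 6.69 FPKM from 374 reads, a ratio of 0.693 (0.604 to 0.794). Fosl2 was at 99.8 FPKM, a ratio of 0.864 (0.846 to 0.882), and Fos at 99.4 FPKM, a ratio of 0.912 (0.873 to 0.952). Jdp2 was lower here, at 194 FPKM against 216, a ratio of 0.897 (0.868 to 0.926). The ratio of Junb was 0.966 (0.934 to 0.9995), which left out 1 only narrowly, and with the libraries rescaled to the same FPKM total it did not (0.971, 0.939 to 1.005), nor with each library scaled to its summed reads (0.975, 0.943 to 1.009).

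Fosl1, Jund and Atf3 did not differ beyond counting error in T2. Their ratios were 0.982 (0.853 to 1.13), 1.01 (0.906 to 1.14) and 1.23 (0.867 to 1.74). Of the 8 members, 0 were higher and 5 lower beyond counting error, beside 10.2% and 13.2% of all genes past the filter. By the size rule 0 members passed, beside 0.768% of genes. The median difference of the members was -0.09 in log2(FPKM + 1), beside 0.00 for all genes. Of the 8 members all but Atf3, with 190 reads over the libraries, have at least 300. Jun and Fosl1 have 1263 reads each and Jund 1827. The deeper a gene is read, the smaller the difference at which its counting interval leaves out 1. Among the 9399 genes with at least 300 reads over the libraries, 11% were higher and 14.8% lower beyond counting error in T2, and 11.6% and 13.5% in T1. Fos, Junb, Jdp2 and Fosl2 have far more, at 12704, 20369, 22835 and 52127 reads. The share called among genes that deep was not computed, so these percentages do not allow for the depth of the members.

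**Figure D3:**
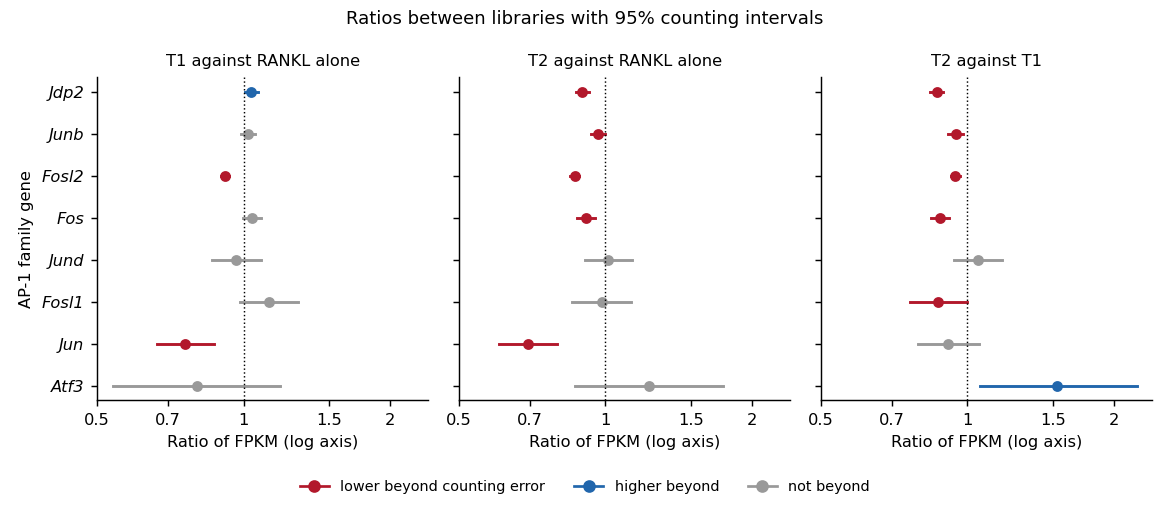
Ratios of FPKM between libraries for the 8 members past the filter, on log axes, with exact 95% counting intervals as lines. Red is lower and blue higher beyond counting error. Jun sits farthest to the left in T1 and T2 against RANKL alone, at 0.759 and 0.693, and Jdp2 lies right of 1 in T1 and left of it in T2.

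The place of each member among those 9399 genes was read as a description. The difference of Jun was -0.36 in log2(FPKM + 1) in T1, and 81 genes, Jun among them, were at or below it. In T2 it was -0.47, with 28 genes at or below. Fosl2, at -0.13 and -0.21, had 13.3% and 5.05% of genes below it. Jdp2, at 0.05 and -0.16, had 70.4% and 9.51% of genes below it. The 3 genes whose pair of differences lay nearest to that of Jun, by Euclidean distance over both among 9503 genes, were Tgfbr1 (-0.35 and -0.47), Tmem98 (-0.36 and -0.46) and Tsku (-0.37 and -0.49). They share with Jun the library of RANKL alone.

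**Figure D4:**
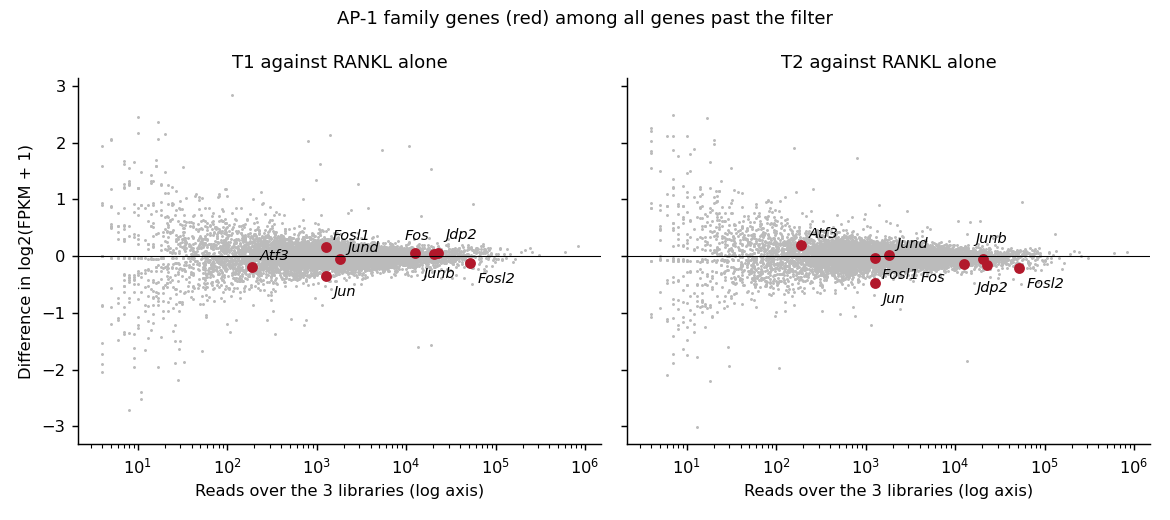
Difference in log2(FPKM + 1) against RANKL alone for T1 (left) and T2 (right) by the reads of each gene over the 3 libraries (log axis). Grey points are the 11069 genes past the filter and red points the 8 members; spread narrows with reads, and Jun lies toward the lower edge of genes of its depth, at -0.36 and -0.47.

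T2 was also compared with T1, which leaves RANKL alone out. Atf3 was higher in T2, at 1.38 FPKM in T1 and 2.12 in T2 (50 and 80 reads), a ratio of 1.53 (1.06 to 2.23). Jdp2 and Fos were lower in T2, at ratios of 0.864 (0.837 to 0.892) and 0.877 (0.840 to 0.915). Fosl2 and Junb were lower by less, at 0.943 (0.923 to 0.963) and 0.945 (0.914 to 0.977). The ratio of Fosl1 was 0.871 (0.761 to 0.997), and 0.891 (0.779 to 1.02) with the libraries rescaled to the same FPKM total or 0.880 (0.769 to 1.007) with each scaled to its summed reads. Jun, at 7.33 and 6.69 FPKM, did not differ beyond counting error, at 0.913 (0.790 to 1.05), nor did Jund, at 1.05 (0.937 to 1.17). In all 1 member was higher and 5 were lower beyond counting error, beside 7.93% and 10.1% of all genes, and 0 passed the size rule, beside 0.831%. Of the 9399 well read genes 99.8% lay below Atf3, which itself has 190 reads over the 3 libraries and so is not among them. Spread is wider at fewer reads, so this is not its place among genes of its own depth.

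Some members share bases with a gene on the opposite strand, and whether strand was used in counting is not given in the sources used here. Shared lengths are the longest matches between GENCODE M21 transcripts, which need not be the annotation behind the reads. Junb overlaps Prdx2 by 176 bases, and Prdx2 is well expressed, at 103, 105 and 103 FPKM. Jun shares 232 bases with the antisense gene Junos, which had 15, 8 and 8 reads beside the 497, 392 and 374 of Jun. Fosl1 shares 1056 bases with Ccdc85b, which had 234, 220 and 203 reads. The deposited length of Ccdc85b is only 609 bases, so the overlap behind the deposited reads must be shorter. Jdp2 shares 165 bases with Gm47863, at 148, 140 and 150 reads, and Jund 543 bases with Gm11175, at 0 reads. The reads of these members are uncertain for that reason. For Fosl1, whose deposited length and coordinates differ from GENCODE M21, the extent is not known. No other gene shared at least 100 bases at 95% identity with a member.

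Of the 24 other genes that the table labels bZIP and that passed the filter, 3 were higher and 5 lower beyond counting error in T1, and 2 higher and 3 lower in T2. Over all genes past the filter, 10.8% were higher and 12.2% lower in T1, and 10.2% and 13.2% in T2. Creb3l4 differed most, at 0.554 FPKM in the control library, 1.46 in T1 and 1.33 in T2 (15, 41 and 39 reads), or 0.66 and 0.58 in log2(FPKM + 1). Dbp and Atf6b were also higher in T1, Atf6 was lower in T1 and T2, and Creb3l2 was lower in T2. A hand-made list of bZIP factors holds only some of these genes, and adds the C/EBP genes, which the table does not label so. Of its 20 genes past the filter, 0 were higher and 4 lower beyond counting error in T1 (Atf4, Mafk, Nfe2l1 and Xbp1), with a median of -0.05. In T2, 2 were higher (Atf7 and Cebpg) and 1 lower (Xbp1), and the median of -0.00049 and the mean of 0.0061 differed in sign. By the naming rule, the ratio of Nfil3 was 0.799 (0.536 to 1.19) in T1, against 0.842 (0.571 to 1.24) in T2, that of Cebpd 1.13 (0.880 to 1.46) and 1.16 (0.906 to 1.49), that of Mafk 0.907 (0.824 to 0.999) and 0.921 (0.838 to 1.01), and that of Cebpg 1.03 (0.940 to 1.13) and 1.10 (1.01 to 1.21). Batf and Batf2, relatives of Batf3, did not pass the filter.

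Upstream of AP-1, the receptor RANK recruits the adaptor TRAF6, and MAP kinases then act on Fos and Jun genes and proteins. Of 19 genes of that route past the filter, 3 were higher and 3 lower beyond counting error in T1, and 2 were higher and 4 lower in T2. Beside them stand 10.8% and 12.2% of all genes in T1, and 10.2% and 13.2% in T2, here and for turnover below. Medians of the route were 0.02 and 0.01, and its mean in T2 was -0.0026. Traf6 was lower in both, at ratios of 0.837 (0.783 to 0.893) and 0.926 (0.869 to 0.987). Map2k2, a kinase gene upstream of ERK, had ratios of 0.902 (0.858 to 0.948) and 0.938 (0.893 to 0.985). Srf and Elk1 encode factors that act on the Fos promoter. Srf had a ratio of 1.14 (1.05 to 1.23) in T1, against 1.02 (0.940 to 1.11) in T2, and Elk1 ratios of 1.15 (0.977 to 1.35) and 1.21 (1.03 to 1.42). Genes of JUN and FOS protein turnover had 0 higher and 2 lower of 9 beyond counting error in each TSH comparison, and medians of -0.05 and -0.01. These were Cop1, a ubiquitin ligase gene for JUN proteins, at 0.697 (0.614 to 0.791) and 0.770 (0.682 to 0.870), and Ddb1, encoding part of the same ligase, at 0.966 (0.941 to 0.992) and 0.933 (0.909 to 0.958). Fbxw7, another ligase gene of c-Jun, was at 0.931 (0.817 to 1.06) and 0.924 (0.812 to 1.05), and Dda1 at 0.936 (0.858 to 1.02) and 1.0 (0.919 to 1.09).

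Downstream, 10 osteoclast genes listed by hand as under AP-1 control passed the filter. That control was not measured here. In T1, 1 of them (Nfatc1) was higher and 7 were lower beyond counting error, and in T2 0 were higher and 10 lower. The shares over all genes were 10.8% higher and 12.2% lower in T1, and 10.2% and 13.2% in T2. The medians were -0.17 and -0.25. Ctsk, the gene of cathepsin K, the main protease for bone collagen, was at 1337 FPKM in the control library, 983 in T1 and 980 in T2. Acp5, Mmp9, Oscar, Mmp14 and Itgb3 had ratios of 0.882, 0.933, 0.760, 0.868 and 0.829 in T1, and of 0.845, 0.866, 0.748, 0.765 and 0.808 in T2. Nfatc1, the partner of AP-1, was at 165, 173 and 159 FPKM. The list overlaps the osteoclast markers whose sums are given above and was chosen with these results known, so its direction is not independent evidence. Of the 11 listed genes 5 had a promoter window in the RefSeq table, with the TRE in 0.

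Among 15 other genes past the filter that were listed by hand as under AP-1 control, 1 was higher and 5 lower beyond counting error in T1. In T2, 3 were higher and 6 lower, and the medians were -0.06 in T1 and -0.03 in T2. All genes gave 10.8% higher and 12.2% lower in T1, and 10.2% and 13.2% in T2. The mean in T2 was 0.01, so median and mean differed in sign there. Plau, encoding the protease urokinase, had ratios of 0.846 (0.824 to 0.870) and 0.764 (0.744 to 0.786), and Spp1, encoding osteopontin, of 0.793 (0.772 to 0.814) and 0.952 (0.928 to 0.975). The chemokine genes Ccl2 and Ccl4 had ratios of 1.17 (0.886 to 1.54) and 1.02 (0.713 to 1.47) in T1, and of 1.26 (0.969 to 1.66) and 1.20 (0.853 to 1.70) in T2.

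Other immediate early genes, which like Fos and Jun are switched on within minutes of many stimuli, gave 0 higher and 4 lower of 20 beyond counting error in T1, and 2 higher and 2 lower in T2. Beside these counts and those of the lineage factors below stand 10.8% and 12.2% of all genes in T1, and 10.2% and 13.2% in T2. Medians of the immediate early genes were -0.07 and 0.02, and their mean in T2 was -0.01. Gadd45b had ratios of 0.811 (0.707 to 0.930) and 0.764 (0.665 to 0.877), and Egr3 of 0.670 (0.495 to 0.902) and 0.764 (0.574 to 1.02). Ier3, at 0.814 (0.732 to 0.906) and 1.07 (0.972 to 1.18), and Klf6, at 0.861 (0.806 to 0.920) and 0.960 (0.901 to 1.02), were lower beyond counting error in T1 alone. Between T2 and T1 their ratios were 1.32 (1.19 to 1.46) and 1.11 (1.04 to 1.19). Of 6 lineage factors that partner or oppose AP-1 past the filter, 2 were higher and 3 lower in T1 and 0 higher and 3 lower in T2, with medians of -0.07 in both. Prdm1, encoding BLIMP1, had ratios of 0.862 (0.805 to 0.923) and 0.777 (0.725 to 0.833), Mitf of 1.12 (1.05 to 1.20) and 0.936 (0.873 to 1.0), Spi1, encoding PU.1, of 0.938 (0.914 to 0.963) and 0.910 (0.886 to 0.934), and Id2 of 0.910 (0.846 to 0.980) and 1.03 (0.963 to 1.11).

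**Figure D5:**
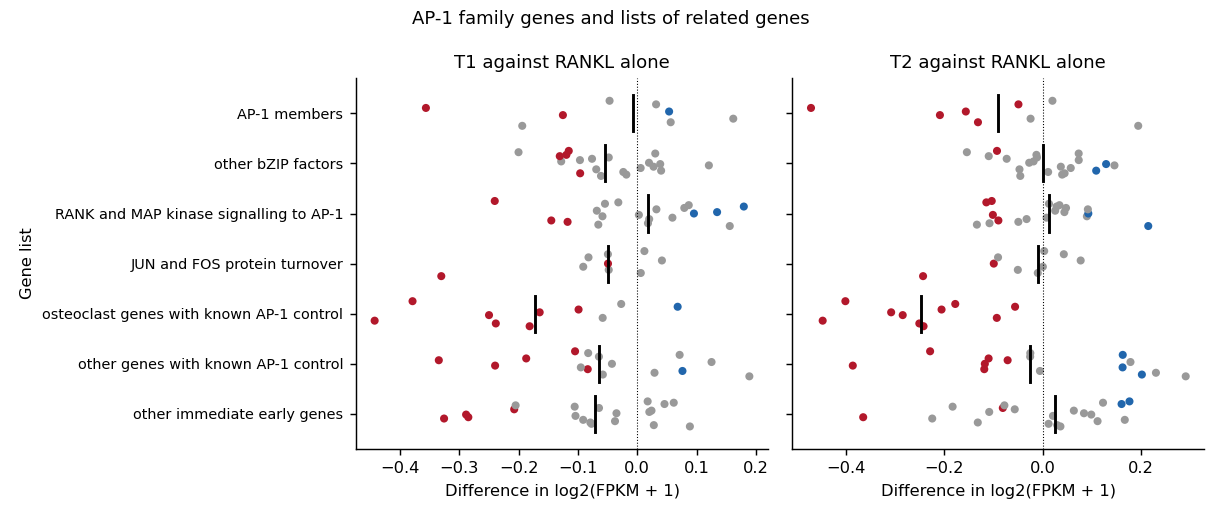
Difference in log2(FPKM + 1) against RANKL alone in T1 (left) and T2 (right) for members and lists of related genes past the filter, 1 point for each gene, with the median as a black line. Red is lower and blue higher beyond counting error, grey neither, and the bZIP row is the hand-made list. The osteoclast genes lie lowest, with medians of -0.17 and -0.25, and Jun is the leftmost point of the AP-1 members, at -0.36 and -0.47.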

How the data were processed

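RNA was sequenced in 3 libraries of RAW264.7 cells, made with a SMARTer mRNA kit per the labels' protocols. Per the submitters' processing notes, the builds were GRCm38 and mm10, names for the same assembly. For the aligner, the counter with its strand setting and the annotation release, nothing is given in the sources used here. Values are FPKM as the authors deposited them, with gene length beside them, and 0 per-sample columns were left unused.

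Reads of each gene were recovered by multiplying FPKM by gene length and dividing by what 1 read is worth in that library, and 100% of nonzero values came out whole within 0.01. Exact Poisson intervals for levels and exact conditional (Clopper-Pearson) intervals for ratios, both 95%, cover no more than counting error, and PCR copies of 1 molecule count as several reads. Differences were taken in log2(FPKM + 1), which makes the changes of low genes look smaller, and 11069 genes passed the filter, a mean of 1 FPKM or more. There was no test, because each culture had 1 library. Ratios carry no added 1. The deposited FPKM already held median-of-ratios scaling, as computed from the reads, though no label states it.

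Members and lists were chosen with earlier results of these data known. Genes named were all members, up to 4 genes of each list with the largest absolute difference in either TSH comparison, Nfatc1, Acp5, Ctsk and Mmp9, and for Jun the 3 nearest genes with at least 300 reads. The genes counted beyond counting error among the other bZIP factors, Creb3l4, and the markers and overlapping genes named, were picked with their values in view. Coordinates of 9 members equal those of GENCODE M21 on GRCm38, all but Fosl1. Shared sequence was sought with BLAST+ 2.17.0. Alternatives were pseudocounts of 0.1 and 5, other scalings and filters, a fold of 1.5, means of lists and other lengths. Functions were tested on simulated reads. The software was Python 3.11.15, numpy 2.4.6, pandas 2.3.3, scipy 1.17.1 and matplotlib 3.10.9.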

Additional observations from a re-analysis of the deposited data

Results flagged for a closer look

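Jdp2 went opposite ways in the TSH libraries against RANKL alone, with a ratio of 1.04 (1.01 to 1.07) in T1 but of 0.897 (0.868 to 0.926) in T2, a difference of -0.21 in log2(FPKM + 1) between them. Nfatc1 did so as well, at 1.05 (1.03 to 1.07) and 0.961 (0.943 to 0.980), a difference of -0.12. Each interval left out 1, but with 1 library for each culture neither difference was tested against replicates. Rescaled to the same FPKM total, the ratio of Jdp2 in T1 did not leave out 1.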

How the results depend on the processing

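With 1 library for each culture, no library could be left out. No paired analysis was possible because no culture had a second library. Median-of-ratios scaling returned the deposited values, with multipliers of 1 in all 3 libraries, and so changed nothing. With the libraries rescaled to the same FPKM total, 0 members in place of 1 were higher beyond counting error in T1, and Jdp2 in T1, Junb in T2 and Fosl1 in T2 against T1 no longer differed beyond it. With each library scaled to its summed reads, chosen after seeing the data, Junb in T2 and Fosl1 in T2 against T1 no longer did. With a mean of at least 5 FPKM, which leaves out Atf3, 0 members in place of 1 were higher in T2 against T1, and the median difference of the members in T1 was 0.032 in place of -0.01. The other counts of members stayed within 1.5-fold under every scaling and filter run, and 0 members passed the size rule under each, a fold of 1.5 included. The Fos share was 74.7%, 73.6% and 73.1% in RANKL alone, T1 and T2 from reads not set per length. With the length of the longest coding transcript, an alternative chosen after seeing the data, it was 54.4%, 53.6% and 52.5%. In both, RANKL alone had the highest share and T2 the lowest, but all measures weight the same reads, so the shared order is not separate evidence. With the deposited lengths the shares of RANKL alone and T1, 53.5% and 53.0%, lie close together. Their counting standard errors are 0.357 and 0.354 percentage points. Depth limited Atf3 (50 to 80 reads), Fosb and Batf3 most.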
